A study of Mus musculus with 10 samples.

Results

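The comparison described here set the cohort with an average of 3 or more cell divisions against the cohort with an average of 2 divisions, both mouse embryonic fibroblasts (MEFs) induced with doxycycline for 96 h. The compared arrays were 4 of the 10 of the study, 2 per cohort, chosen by their titles and cohort labels and by no measured value. Normalization, the choice of probe set and the fit behind the p-values used all 10 arrays. All 34945 of 45101 probe sets that name 1 gene were read, and they cover 18193 genes.

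Both cohorts were secondary, inducible MEFs of a 129/SvJ x C57/B6 hybrid background, kept in 15% fetal bovine serum with doxycycline at 2 ug/ul (the unit as labelled). Doxycycline switched on OSKM, the reprogramming factors Pou5f1 (also called Oct4), Sox2, Klf4 and Myc, so both sides of the comparison carry the induced factors. The other arrays held a starved control, the same cells in 0.5% serum without doxycycline, and induced cohorts with an average of 0 and of 1 division, again 2 arrays each. Total RNA was hybridised to single-colour Affymetrix arrays, and the values below are log2 of the deposited intensity unless another scale is named. How cells were parted by division number, which promoter drives the factors and how many copies the cells carry are not stated in the labels. The division number of the cohort of 3 or more comes from its cohort label, since its array titles name the induction alone. The labels call the arrays of 3 or more divisions biological replicates and those of 2 divisions only replicates. None says that they came from separate cultures. The p-values rest on the spread between the arrays of all 5 groups that is left after a shift shared by replicate number is taken out. That spread may be technical.

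When fibroblasts are reprogrammed, the earliest transcriptional changes include loss of mesenchymal and matrix genes and gain of epithelial genes, a mesenchymal-to-epithelial transition. Genes of the pluripotent state usually come on later and in few cells. Myc drives genes of ribosome production, cell division and metabolism.

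The arrays of 3 or more divisions and the starved control were registered first, as a set of 4, and the arrays of 2, 1 and 0 divisions later, as a set of 6. Set and cohort therefore cannot be told apart in this comparison. Array medians lay between 31.4 and 33.95 on the intensity scale over all 10 arrays. The ratio of the 3′ to the 5′ control probe set of Actb was 0.49 and 0.50 (log2) on the arrays of 3 or more divisions, against 0.46 and 0.50 on those of 2 divisions. The 3′ to 5′ ratio of Gapdh was 0.27 and 0.26, against 0.11 and 0.26. The 5′ probe set of 18S ribosomal RNA read 1747 and 1553 (intensity) at 3 or more divisions, against 4218 and 2399 at 2 divisions. Its 3′ probe set read 827 and 1012, against 942 and 713, and its M probe set 881 and 1099, against 870 and 881. The added control bioB read 9.29 and 9.20 (log2), against 9.23 and 9.65. The part of these differences in the results was not tested. Summed fibroblast matrix genes were bright in both cohorts but lower at 3 or more divisions, at 17.08 and 16.78, against 17.43 and 17.66. Vim, an intermediate filament gene of mesenchymal cells, read 14.34 and 14.27 at 3 or more divisions, against 14.40 and 14.37 at 2 divisions. Of the markers of other cell types, summed endothelial and skeletal muscle genes ran from 8.99 to 9.56 per array at 3 or more divisions. At 2 divisions they ran from 8.77 to 9.41. Summed macrophage markers were higher at 3 or more divisions, at 9.32 and 9.18, against 9.02 and 8.72. Summed adipocyte markers read 13.08 and 13.03, against 12.97 and 13.08 at 2 divisions. Summed neural markers were higher, at 12.11 and 12.39, against 11.76 and 11.76, and summed cartilage and bone markers were lower, at 10.42 and 10.04, against 11.18 and 11.57. The part of the macrophage, neural, and cartilage and bone markers in the results was not tested. In bulk RNA, fewer cells of a type and less RNA per cell cannot be told apart.

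Cells of 3 or more divisions differed from cells of 2 divisions in many genes, with epithelial and ribosome genes among the rises and matrix genes among the falls. limma, with the replicate number as a block, called 3449 of 18193 genes (19.0%) at a Benjamini-Hochberg adjusted p under 0.05. Of these, 1839 (10.1%) were higher at 3 or more divisions and 1610 (8.85%) were lower. At least 2-fold changes were seen in 828 called genes, 341 higher and 487 lower. The median change over all genes tested was 0.03.

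The call count depended on the fit and on the arrays. Without the replicate block 1087 genes (5.97%) were called, 629 higher and 458 lower, and all 1087 were among the 3449 with the same direction. The count was 1213 without replicate 2 of the 3 or more divisions and 740 without replicate 2 of the 2 divisions. Leaving out replicate 1 of 3 or more divisions gave 2369 calls, and leaving out replicate 1 of 2 divisions gave 2891. All 3449 called genes moved the same way in both replicate pairs, as did 12540 of all 18193 genes. The call itself favours such agreement, so it adds no support. In 3366 of the called genes the arrays of the cohorts did not overlap. Arrays did not overlap in 10073 of all 18193 genes.

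**Figure D1:**
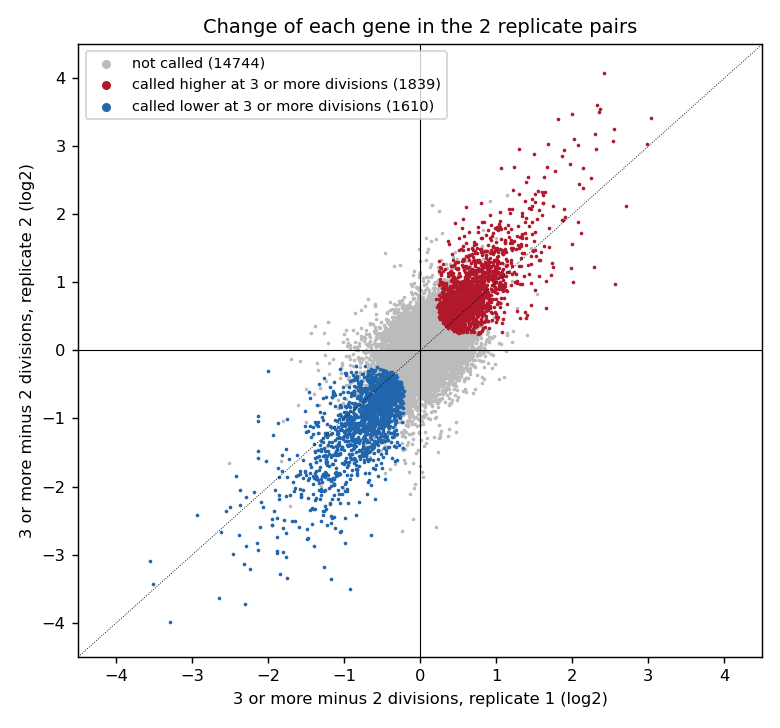
Each point is 1 of 18193 genes, with the log2 difference (3 or more minus 2 divisions) of replicate 1 on the x axis and of replicate 2 on the y axis. The 1839 genes called higher lie in the upper right and the 1610 called lower in the lower left, and over all genes the pair differences had a correlation of 0.753 as a description of these 4 arrays.

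The same fit gave 0 calls between 2 and 1 divisions with limma, with 977 genes at an unadjusted p under 0.05. In the comparison of 3 or more with 2 divisions, 5776 genes had an unadjusted p under 0.05. The step between 2 and 1 divisions lies within the later set of arrays, whereas the comparison reported here crosses the sets. The difference between the steps was tested gene by gene, and 9 genes passed (0.0495%).

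Of the 828 called genes with at least a 2-fold change, 517 (62.4%) had means within 0.5 (log2) of each other over the cohorts of 0, 1 and 2 divisions, 244 of them higher and 273 lower at 3 or more divisions. Such level genes were less frequent among the larger changes than over all genes tested, of which 16823 of 18193 (92.5%) were that level. The starved control shares the earlier array set with the cohort of 3 or more divisions. The difference of control minus 0 divisions also crosses the sets and uses none of the 4 arrays. It had the same sign as the change in 634 of the 3449 called genes (18.4%), against 37.4% over all genes. The control also differed from the cohort of 0 divisions in serum and doxycycline, which cannot be parted from the array set here. The part of the set in the changes was therefore not tested.

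The largest rises were led by epithelial genes. Cdh1, E-cadherin, the adhesion protein of epithelial junctions, read 9.19 and 9.42 at 3 or more divisions, against 6.78 and 5.35 at 2 divisions. Both arrays of 3 or more divisions lay above both arrays of 2, a 9.44-fold rise (log2 3.24 ± 0.39 SE, limma adjusted p = 0.0027). The control read 3.22 and 3.52, and the cohorts of 0 and 1 division averaged 3.85 and 4.78, so Cdh1 was higher in each cohort with more divisions.

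Keratins, the intermediate filament proteins of epithelia, made up 3 of the 12 largest rises. Krt14, a keratin of the basal layer of stratified epithelium, read 10.55 and 10.48 at 3 or more divisions, against 8.19 and 6.94 at 2 divisions (7.74-fold, adjusted p = 0.00653). Krt6a, a keratin of wounded and proliferating epidermis, read 9.47 and 9.70, against 7.12 and 6.20 at 2 divisions (7.61-fold, adjusted p = 0.00198). Krt6b, its close relative, read 8.32 and 7.83, against 5.34 and 4.80 (8.02-fold, adjusted p = 0.00139). The arrays of the cohorts did not overlap in any of these 3. Krt6a and Krt6b are near-identical copies, and how far their probe sets share signal is not known here.

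The other rises in that group came from transport, metabolism and nuclear genes. Slco1a5, an organic anion transporter, read 8.92 and 9.60 at 3 or more divisions, against 5.88 and 6.19 at 2 divisions (log2 change 3.23 ± 0.37 SE). Cth, cystathionine gamma-lyase, which makes cysteine, read 8.82 and 9.87 at 3 or more divisions, against 6.49 and 6.26 at 2 divisions (2.97 ± 0.43). Cth showed no stepwise climb before, averaging 6.59 in the cohort of 0 divisions, 6.30 in that of 1 and 6.37 in that of 2. Cth was not called without the block (adjusted p = 0.0626).

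Them5, an acyl-CoA thioesterase of mitochondria, read 7.91 and 8.38 at 3 or more divisions, against 5.35 and 5.13 at 2 divisions (7.47-fold, adjusted p = 0.00054). Nup210, a membrane protein of the nuclear pore, read 7.28 and 7.79, against 4.96 and 4.84 at 2 divisions (6.20-fold, adjusted p = 0.00054). The replicates of Them5 and Nup210 lay close together within each cohort. A second probe set of Nup210 was dim on all 4 arrays, at 3.25 or less, with a change of -0.05 that was not called. Bdh1, Bex1, Ap1s3 and Shisa3 completed the 12 largest rises, with log2 changes of 2.60 to 2.80 and adjusted p values of 0.00139 to 0.00834. Bex1 was not called by limma without the block (adjusted p = 0.0861).

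**Figure D2:**
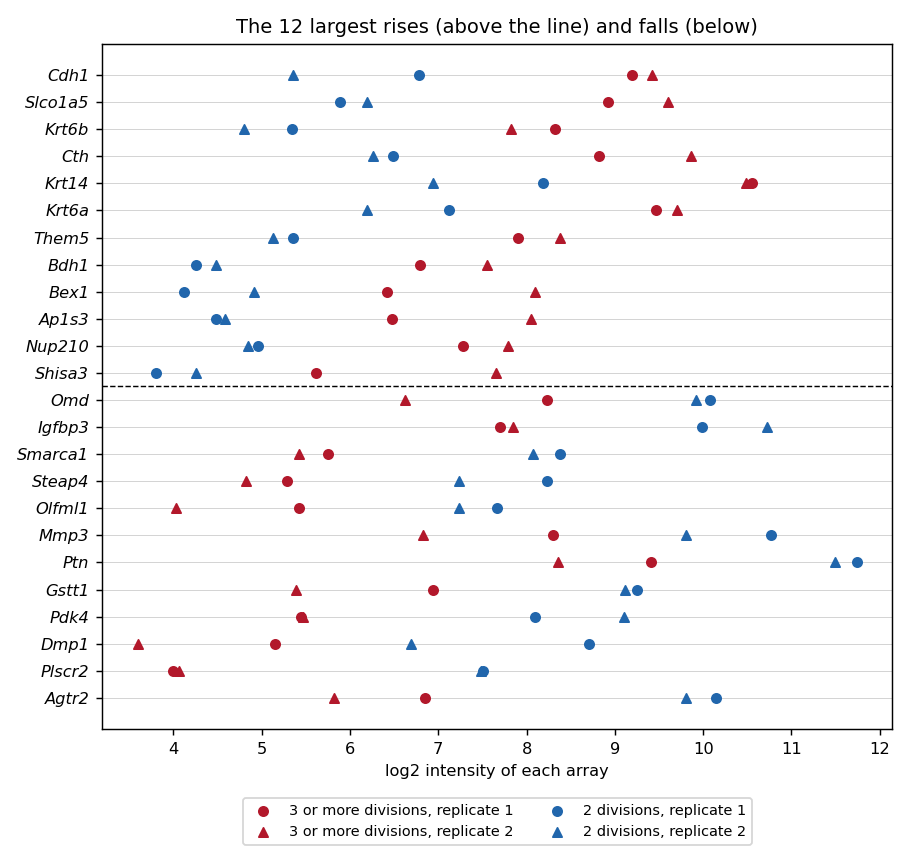
Log2 intensity (x axis) on each of the 4 arrays for the 12 largest rises and the 12 largest falls among called genes, with circles for replicate 1 and triangles for replicate 2. Cdh1 tops the rises at 9.19 and 9.42 at 3 or more divisions, against 6.78 and 5.35 at 2 divisions, and Agtr2 ends the falls at 6.85 and 5.82, against 10.14 and 9.80.

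Among the largest falls were genes of receptors, matrix and detoxification. Agtr2, the type 2 receptor of angiotensin, read 6.85 and 5.82 at 3 or more divisions, against 10.14 and 9.80 at 2 divisions (12.5-fold lower, log2 change -3.64 ± 0.55 SE, limma adjusted p = 0.00489). It was not called without the block (adjusted p = 0.0809). Plscr2, a phospholipid scramblase gene, read 3.99 and 4.06 at 3 or more divisions, against 7.51 and 7.49 at 2 divisions (11.1-fold lower, adjusted p = 0.00102). Plscr2 showed the tightest replicates of the large falls: its 8 other arrays lay between 7.49 and 8.26, the control included.

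Gstt1, a glutathione transferase, read 6.94 and 5.39 at 3 or more divisions, against 9.25 and 9.12 at 2 divisions (8.11-fold lower, adjusted p = 0.00282). It was not called by limma without the block (adjusted p = 0.0691). Smarca1, a chromatin remodelling ATPase, read 5.76 and 5.42, against 8.38 and 8.08 at 2 divisions (6.25-fold lower, adjusted p = 0.0026). On both genes the control arrays were as bright as those of 2 divisions or brighter, at 10.85 and 9.15 for Gstt1 and at 9.44 and 8.43 for Smarca1.

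Secreted proteins filled most of the remaining falls. Ptn, the growth factor pleiotrophin, read 9.41 and 8.36 at 3 or more divisions, against 11.74 and 11.50 at 2 divisions (6.65-fold lower). Mmp3, a matrix-degrading protease, read 8.29 and 6.82, against 10.77 and 9.81 at 2 divisions (6.62-fold lower). Igfbp3, which binds insulin-like growth factors, read 7.70 and 7.85, against 9.99 and 10.73 at 2 divisions (log2 change -2.59 ± 0.25 SE). These 3 genes had adjusted p values of 0.00194 to 0.0065, and no array of one cohort overlapped the other. Mmp3 was not called without the block. Mmp3 had been higher with more divisions before, with means of 7.72 at 0 divisions, 8.75 at 1 and 10.29 at 2. Pdk4, also among the falls, had done the same, with means of 7.12, 7.96 and 8.60. Omd, Olfml1, Dmp1, Steap4 and Pdk4 made up the rest. The call of Steap4 was the closest to the threshold (adjusted p = 0.0496), with replicates that differed widely in several cohorts. Without the block Omd, Olfml1, Dmp1 and Steap4 were not called.

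The induced factors themselves did not move together. Pou5f1 read 7.64 and 8.23 at 3 or more divisions, against 6.41 and 5.54 at 2 divisions (3.89-fold higher, limma adjusted p = 0.0053). Myc read 10.71 and 11.29, against 9.66 and 9.80 at 2 divisions (2.41-fold higher, adjusted p = 0.0116), and was not called without the block (adjusted p = 0.152). In both, the arrays of 3 or more divisions were the brightest of all 10.

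Klf4 fell on its brighter probe set, with 8.65 and 8.45 at 3 or more divisions, against 9.60 and 10.14 at 2 divisions (2.49-fold lower, adjusted p = 0.00328). The second Klf4 probe set read 8.99 and 9.01 at 3 or more divisions, against 8.70 and 9.19 at 2 divisions, a change of 0.06 that was not called. Sox2 read 3.84 and 4.01 at 3 or more divisions, against 4.10 and 3.74 at 2 divisions, and the cohorts overlapped. Sox2 was as dim in the control, at 4.10 and 3.55. Where each probe set lies relative to the transgenes is not given, so transgene and endogenous transcripts cannot be told apart.

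The wider epithelial program moved in part. Of 20 desmosome and keratin genes measured, 10 rose, against 10.1% of all genes, 0 fell and 10 were not called, with a median change of 0.85. Without the block 7 were called, and without replicate 2 of the 2 divisions 6. Krt8, a keratin of simple epithelia, read 9.87 and 9.97 at 3 or more divisions, against 7.98 and 7.03 at 2 divisions (5.33-fold, adjusted p = 0.00194). Dsp, desmoplakin, which ties keratins to desmosomes, read 11.55 and 11.92, against 10.01 and 9.57 at 2 divisions (3.85-fold, adjusted p = 0.014). Krt16 and Krt17, keratins of activated epidermis, rose 5.92-fold and 5.11-fold, and Pkp1, a desmosomal plaque protein, rose 3.38-fold. Krt5, the usual partner of Krt14, was dim and did not pass, with 5.05 and 5.31 at 3 or more divisions, against 4.92 and 5.14 at 2 divisions. Krt18, the usual partner of Krt8, was dim too, with 3.92 and 3.78, against 3.82 and 3.50.

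Of 19 genes of stratified epithelium, 7 rose (36.8%, against 10.1% of all genes) and 0 fell, with a median change of 0.50, and 4 were called without the block. Without replicate 2 of the 3 or more divisions 3 were called, without replicate 2 of the 2 divisions 1, and without replicate 1 of the 3 or more divisions 3. Cnfn, a gene of the cornified envelope, read 8.12 and 7.31 at 3 or more divisions, against 6.50 and 4.76 at 2 divisions (4.25-fold, adjusted p = 0.0103). Tgm1, the transglutaminase that cross-links that envelope, read 5.99 and 6.64, against 4.38 and 4.47 at 2 divisions (3.70-fold, adjusted p = 0.00194). The envelope genes Ivl and Evpl rose as well, by log2 0.66 and 0.93. Trp63, the master regulator of stratified epithelium, was not called, with 4.70 and 4.84 at 3 or more divisions, against 5.62 and 4.76 at 2 divisions.

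Junction genes moved least. Of 26 epithelial junction genes, 5 rose (19.2%, against 10.1% of all genes) and 0 fell, with a median change of 0.19, and 3 were called without the block. The count was 2 without replicate 2 of the 2 divisions and 3 without each of the other arrays of the comparison. Besides Cdh1 these were Grhl3, a transcription factor of epithelial barriers (1.95, adjusted p = 0.0053), the membrane protease St14 (0.91, adjusted p = 0.0376), the claudin Cldn3 (0.75, adjusted p = 0.00713) and the protease inhibitor Spint1 (0.51). Epcam, an epithelial adhesion molecule that also marks later reprogramming, read 6.56 and 6.16 at 3 or more divisions, against 6.37 and 6.30 at 2 divisions, and the cohorts overlapped. Esrp1, Ocln, Cldn7 and Grhl2 had changes between -0.16 and 0.09 and were not called.

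**Figure D3:**
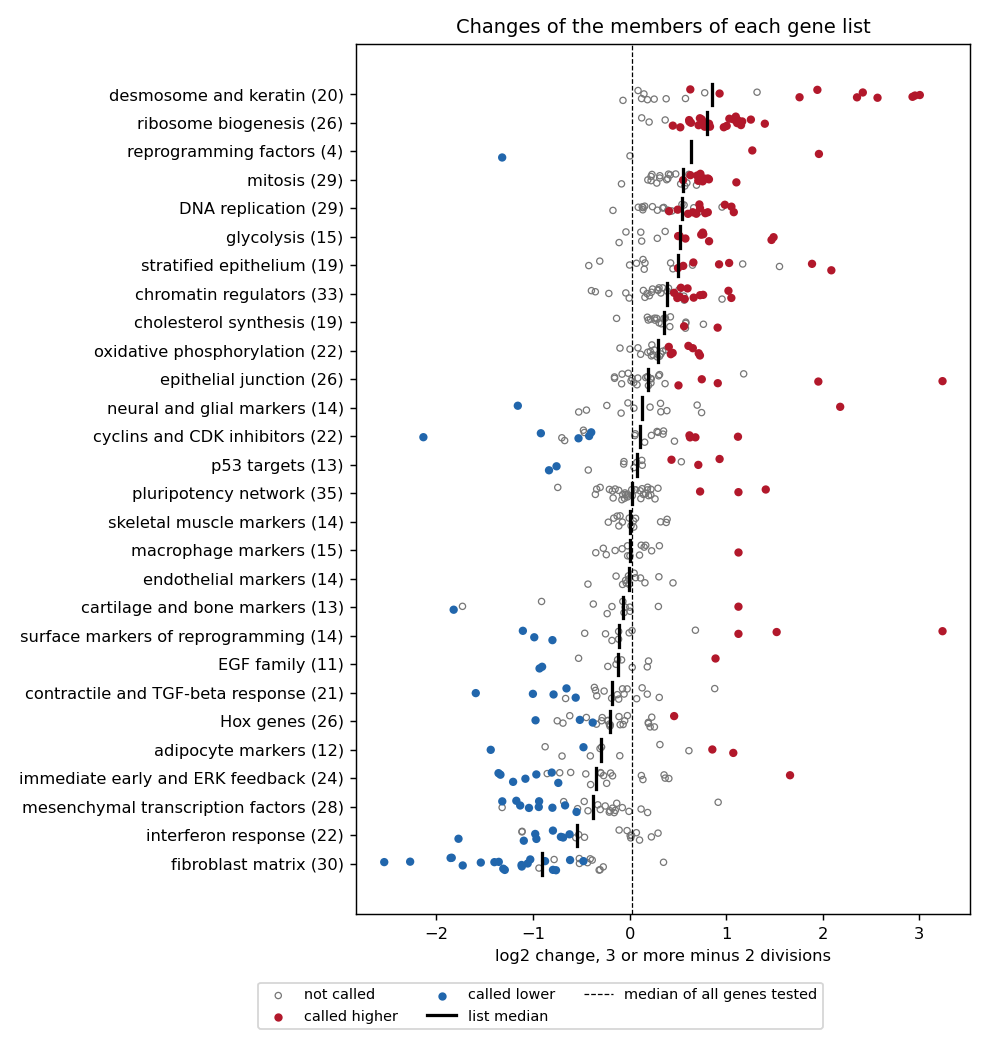
Log2 change (3 or more minus 2 divisions, x axis) of every measured member of 28 gene lists, with the number measured in parentheses, filled points for called genes and a black bar for the list median. The lists run from desmosome and keratin genes, with a median of 0.85, down to fibroblast matrix genes, with a median of -0.91, against a median of 0.03 over all genes tested.

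Most fibroblast matrix genes fell: 19 of 30 were called lower (63.3%, against 8.85% of all genes), 0 were called higher, and the median change was -0.91. Without the block 7 were called, without replicate 2 of the 3 or more divisions 6, and without replicate 2 of the 2 divisions 5. Pdgfra, the receptor that marks mesenchymal cells, read 8.31 and 7.40 at 3 or more divisions, against 10.45 and 10.34 at 2 divisions (5.81-fold lower, adjusted p = 0.00721). Fmod, fibromodulin, a proteoglycan that binds collagen fibrils, read 10.06 and 9.19, against 11.23 and 11.72 at 2 divisions (3.61-fold lower, adjusted p = 0.005). Dpt, dermatopontin, read 7.25 and 7.14, against 8.83 and 9.25 at 2 divisions (3.58-fold lower, adjusted p = 0.00644). Dpt was also lower in each cohort with more divisions, with means of 11.71 in the control, 10.42 at 0 divisions, 9.32 at 1 and 9.04 at 2.

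Small leucine-rich proteoglycans other than Fmod fell as well, with Ogn 3.31-fold lower, Lum 2.91-fold lower and Dcn 2.08-fold lower. The chief fibrillar collagens stayed bright. Col1a1 read 13.41 and 13.27 at 3 or more divisions, against 12.32 and 13.66 at 2 divisions, overlapped between cohorts and was not called. Col1a2 and Col3a1 fell by 0.48 and 0.62 on the log2 scale. Fn1, fibronectin, read 13.86 and 13.61, against 14.06 and 14.19 at 2 divisions, a change of -0.39 that was not called (adjusted p = 0.109).

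Of 28 mesenchymal transcription factors and adhesion genes 9 fell (32.1%, against 8.85% of all genes) and 0 rose, with a median change of -0.38. Without the block 3 were called, without replicate 2 of the 3 or more divisions 4, and without replicate 2 of the 2 divisions 2. Twist1, an inducer of the mesenchymal state, read 9.27 and 8.94 at 3 or more divisions, against 10.40 and 10.44 at 2 divisions (2.49-fold lower, adjusted p = 0.00249). Its mean had lain between 10.12 and 10.42 at 0, 1 and 2 divisions. Cdh11, a mesenchymal cadherin, read 10.82 and 10.81, against 11.61 and 12.35 at 2 divisions (2.25-fold lower). Snai2, a repressor of Cdh1, read 10.53 and 10.10, against 11.53 and 11.36 at 2 divisions (2.19-fold lower, adjusted p = 0.0136). Zeb1 and Zeb2, repressors of the same gene, changed by -0.43 and -0.47 and were not called (adjusted p = 0.0829 and 0.097). Cdh2, N-cadherin, changed by -0.18 and was not called.

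Among 21 genes of contraction and the TGF-beta response 5 fell (23.8%, against 8.85% of all genes) and 0 rose, with a median change of -0.19. Without the block limma called 0, with 1 at an unadjusted p under 0.05. Without replicate 2 of the 3 or more divisions 3 were called, and without replicate 2 of the 2 divisions 2. Tgfbi, a matrix protein induced by TGF-beta, read 9.10 and 9.07 at 3 or more divisions, against 11.03 and 10.31 at 2 divisions (3.01-fold lower). Ccn2, a growth factor-binding matrix protein of the same response, read 11.84 and 12.50, against 12.54 and 13.38 at 2 divisions (1.72-fold lower). Acta2, smooth muscle actin, varied more between replicates than between cohorts, with 12.34 and 13.40 at 3 or more divisions, against 11.82 and 13.66 at 2 divisions.

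Surface molecules used to stage reprogramming gave a split picture. Of 14 measured, 3 rose and 3 fell (21.4% each way, against 10.1% higher and 8.85% lower over all genes), with a median change of -0.11. Without the block 2 were called, both higher, and without replicate 2 of the 2 divisions only 1 was. Without replicate 2 of the 3 or more divisions 2 were called higher and 1 lower. Cd24a read 12.89 and 12.95 at 3 or more divisions, against 11.55 and 11.24 at 2 divisions (2.87-fold higher), and it had been higher with each division, with means of 9.13 at 0 and 10.29 at 1. Pdpn, a glycoprotein of fibroblasts, read 7.87 and 8.36, against 8.57 and 9.87 at 2 divisions (2.15-fold lower). Icam1, an adhesion molecule, read 7.90 and 6.89 at 3 or more divisions, against 8.81 and 7.95 at 2 divisions (1.98-fold lower). Thy1, a fibroblast marker that reprogramming cells lose, read 10.46 and 9.90, against 10.33 and 10.52 at 2 divisions, and Fut4, the enzyme that makes SSEA-1, read 3.63 and 3.88, against 3.89 and 3.85. Neither Thy1 nor Fut4 was called, and their cohorts overlapped.

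Most genes of the pluripotency network were dim: 4 of 35 measured had a mean over the 10 arrays above the median of all genes. Of the 35, 3 rose and 0 fell, with a median change of 0.03, equal to that of all genes, and the share that rose (8.57%) was near the 10.1% of all genes. Nanog, a core factor of pluripotent cells, read 3.13 and 3.55 at 3 or more divisions, against 3.36 and 3.43 at 2 divisions. The 3 rises were Mybl2, a transcription factor of dividing cells (1.41, adjusted p = 0.00598), Alpl, alkaline phosphatase (1.13, adjusted p = 0.0221), and the DNA methyltransferase Dnmt3b (0.73, adjusted p = 0.00582). Alpl also counts among the surface molecules and among the bone markers. Without replicate 2 of the 3 or more divisions 1 of them was called, and without replicate 2 of the 2 divisions 0.

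Ribosome biogenesis genes rose almost throughout: 23 of 26 were called higher (88.5%, against 10.1% of all genes), 0 lower, and the median change was 0.80. Without the block 10 were called, without replicate 2 of the 3 or more divisions 14, and without replicate 2 of the 2 divisions 9. Nolc1, a nucleolar phosphoprotein, read 9.97 and 10.30 at 3 or more divisions, against 8.68 and 8.79 at 2 divisions (2.64-fold, adjusted p = 0.00194). Polr1b, a subunit of RNA polymerase I, read 8.74 and 9.17, against 7.66 and 7.73 at 2 divisions (2.39-fold, adjusted p = 0.00227). Fbl, fibrillarin, which methylates ribosomal RNA, read 12.06 and 12.35, against 11.20 and 11.07 at 2 divisions (2.11-fold, adjusted p = 0.00282). No array of one cohort reached the other in these 3 genes.

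Over the earlier cohorts the same list was close to level, with median changes of -0.08 between 1 and 0 divisions and 0.12 between 2 and 1. Smaller changes were seen in Ncl, nucleolin, at log2 0.45 (adjusted p = 0.0243), and in Npm1, nucleophosmin, at 0.13 and not called. Gnl3 and Polr1c, at 0.37 and 0.20, were the other members that were not called.

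DNA replication and mitosis genes rose in part. Of 29 DNA replication genes 12 rose (41.4%, against 10.1% of all genes) and 0 fell, with a median change of 0.54. Of 29 mitosis genes 11 rose (37.9%) and 0 fell, with a median change of 0.55. Both counts depended on single arrays. Without the block 4 replication and 5 mitosis genes were called. With replicate 2 of the 3 or more divisions left out limma called 0 and 0, with 10 and 9 at an unadjusted p under 0.05, and without replicate 2 of the 2 divisions 0 and 0, with 14 and 14. Without replicate 1 of the 2 divisions the counts were 3 and 3.

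Cdt1, which loads the replicative helicase, read 10.41 and 10.74 at 3 or more divisions, against 9.52 and 9.47 at 2 divisions (2.11-fold, adjusted p = 0.0116). Cdc6, its partner in that step, read 7.19 and 7.55, against 6.36 and 6.41 at 2 divisions (1.98-fold, adjusted p = 0.0125). Aurka, a kinase of the mitotic spindle, read 8.94 and 9.45, against 8.14 and 8.05 at 2 divisions (2.15-fold, adjusted p = 0.00671). Plk1, a kinase of mitotic entry, read 8.19 and 8.49, against 7.38 and 7.68 at 2 divisions (1.75-fold, adjusted p = 0.0165). Replicate 2 was the higher array of 3 or more divisions in all 4. Other, dim probe sets of Aurka and Cdt1 moved the opposite way, by -0.29 and -0.0038, and were not called. Pcna, the sliding clamp of DNA polymerase, and Mki67, the proliferation marker Ki-67, changed by 0.13 and 0.22 and were not called, and Cdk1, the mitotic kinase, changed by 0.31 and was not called.

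Mitosis genes often carry the cell cycle homology element, TTTGAA, near their starts and CCAAT boxes before it, and both were searched on both strands from 250 bases before to 50 bases after each RefSeq start (GRCm38.p6). The sequences below show the TTTGAA match in 6 called mitosis genes, with TTTGAA or its reverse complement in capitals. For Ube2c and Cdc20 the 250 bases before the start are printed, in which CCAAT boxes lie as well, at chr2:164769679-164769928 (plus strand) and chr4:118437344-118437593 (minus strand). The other 4 lines give the 24 bases around the match of Aurka (chr2:172370524-172370547, minus), Plk1 (chr7:122159456-122159479, plus), Racgap1 (chr15:99651637-99651660, minus) and Cenpa (chr5:30666893-30666916, plus).
Ube2c: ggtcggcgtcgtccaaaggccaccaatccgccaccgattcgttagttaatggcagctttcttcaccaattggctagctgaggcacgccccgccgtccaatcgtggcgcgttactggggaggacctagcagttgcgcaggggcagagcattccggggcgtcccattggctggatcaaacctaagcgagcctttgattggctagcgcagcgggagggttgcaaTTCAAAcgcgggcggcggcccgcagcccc
Cdc20: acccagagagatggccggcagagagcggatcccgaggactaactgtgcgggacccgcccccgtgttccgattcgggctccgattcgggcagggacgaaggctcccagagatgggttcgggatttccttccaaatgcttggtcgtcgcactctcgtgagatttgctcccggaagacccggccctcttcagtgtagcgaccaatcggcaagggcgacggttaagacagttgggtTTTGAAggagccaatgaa
Aurka: aggagaaccTTTGAAttgtaacgg
Plk1: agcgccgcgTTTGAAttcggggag
Racgap1: gtgcgtgatTTTGAAccggatctg
Cenpa: gggtgatttTTTGAActgctggcg

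The window before the Ube2c start holds 6 CCAAT boxes over both strands, 2 of them overlapping, and that of Cdc20 holds 2, with 1 on either side of the TTTGAA. Over the list, 19 of 24 mitosis genes with a listed promoter held TTTGAA (79.2%), against 15.7% of the 14452 genes tested that have a listed promoter, and 79.2% held CCAAT, against 42.0%. Among the 8 called mitosis genes with a listed promoter, Bub1 and Cenpe had no TTTGAA in the window. The DNA replication genes held TTTGAA in 4 of 25 and CCAAT in 64.0%. The motif is a property of mitosis genes whether called or not, and over all genes called higher its share was 15.5%. The E-box CACGTG, which Myc can bind, was present in 14.2% of genes called higher, in 9.14% of those called lower and in 10.2% of all. Among calls of at least 2-fold its share was 11.1% of those higher and 6.09% of those lower. A match describes letters in a window and not a bound site.

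Cyclins and CDK inhibitors moved both ways, with 4 of 22 higher (18.2%, against 10.1% of all genes), 5 lower (22.7%, against 8.85%) and a median change of 0.11. Without the block 0 were called higher and 1 lower, without replicate 2 of the 3 or more divisions 1 and 1, and without replicate 2 of the 2 divisions 0 and 0. Without replicate 1 of the 3 or more divisions 2 were called higher and 1 lower. Cdk6, a G1 kinase, read 9.75 and 10.21 at 3 or more divisions, against 8.71 and 9.01 at 2 divisions (2.18-fold higher). Ccne1, cyclin E1, rose by log2 0.63 (adjusted p = 0.0106). Cdkn1c, the CDK inhibitor p57, read 5.71 and 5.33, against 7.20 and 8.10 at 2 divisions (4.39-fold lower, adjusted p = 0.0229). It was lower in each cohort with more divisions, with means of 10.22 in the control, 8.68 at 0, 7.97 at 1 and 7.65 at 2 divisions. Cdkn1a, the CDK inhibitor p21, read 13.34 and 13.40, against 12.70 and 13.11 at 2 divisions and was not called. Cdkn2a, of the Ink4a/Arf locus, was lower by a small margin (-0.40, adjusted p = 0.0312).

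Targets of p53 gave no common direction: of 13 measured 3 rose (23.1%, against 10.1% of all genes), 2 fell (15.4%, against 8.85%), and the median change was 0.07. Without the block, and also without replicate 1 of the 3 or more divisions, 1 was called in each direction. With replicate 2 of either cohort left out, 0 were called higher and 1 lower. Bbc3, the pro-apoptotic protein Puma, read 8.24 and 8.37 at 3 or more divisions, against 7.51 and 7.67 at 2 divisions (1.64-fold higher). Fas, a death receptor, read 9.34 and 9.28, against 10.05 and 10.08 at 2 divisions (1.69-fold lower, adjusted p = 0.00507).

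Energy metabolism genes rose in part. Of 15 glycolysis genes measured 9 rose and 0 fell, with a median change of 0.52. Of 22 oxidative phosphorylation genes 7 rose (31.8%) and 0 fell, with a median change of 0.30, and 10.1% of all genes rose. Without the block 2 and 4 were called, without replicate 2 of the 3 or more divisions 4 and 1, and without replicate 2 of the 2 divisions 1 and 1. Without replicate 1 of the 3 or more divisions the counts were 5 and 3. Hk2, the hexokinase of growing cells, read 9.47 and 10.09 at 3 or more divisions, against 8.13 and 8.44 at 2 divisions (2.81-fold, adjusted p = 0.00536). Pfkp, a phosphofructokinase, read 9.72 and 10.20, against 8.68 and 8.30 at 2 divisions (2.77-fold, adjusted p = 0.00337). The cohorts did not overlap in either gene. Slc2a1, the main glucose transporter of fibroblasts, read 9.26 and 9.28, against 9.49 and 9.13 at 2 divisions and was not called. Cyc1 and Cycs, both cytochromes of the respiratory chain, rose by log2 0.73 and 0.72. Of 19 cholesterol synthesis genes 2 rose, Dhcr7 and Pmvk (10.5%, near the 10.1% of all genes), and 0 fell, with a median change of 0.36. That count ranged from 0 to 8 when single arrays were left out, the highest without replicate 1 of the 2 divisions.

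Of 33 chromatin regulators 11 rose (33.3%, against 10.1% of all genes) and 0 fell, with a median change of 0.39. Without the block 4 were called, without replicate 2 of the 3 or more divisions 1, without replicate 2 of the 2 divisions 2, all of them higher. Without replicate 1 of the 2 divisions 4 were called higher and 1 lower. Ezh2, the H3K27 methyltransferase of Polycomb complex 2, read 8.65 and 8.82 at 3 or more divisions, against 7.96 and 7.99 at 2 divisions (1.69-fold, adjusted p = 0.016). Hells, a helicase needed for DNA methylation, read 7.98 and 8.32, against 7.18 and 7.07 at 2 divisions (2.03-fold). Eed and Suz12, the partners of Ezh2, changed by 0.30 and 0.39 and were not called.

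Signalling and defence genes leaned lower. Of 24 immediate early and ERK feedback genes 7 fell (29.2%, against 8.85% of all genes) and 1 rose (4.17%, against 10.1%), with a median change of -0.35. Without the block 3 were called lower, without replicate 2 of the 3 or more divisions 3, and without replicate 2 of the 2 divisions 4. Fos, a subunit of AP-1, read 10.37 and 10.26 at 3 or more divisions, against 11.33 and 11.97 at 2 divisions (2.52-fold lower, adjusted p = 0.00882). Etv5, a transcription factor downstream of ERK, read 7.31 and 6.37, against 8.82 and 7.57 at 2 divisions (2.56-fold lower), and was not called without the block (adjusted p = 0.36). Dusp6, a phosphatase that switches ERK off, read 7.97 and 7.91, against 8.83 and 8.97 at 2 divisions (1.95-fold lower). Atf3, a stress-induced factor, was the member that rose, with 8.60 and 8.85, against 7.22 and 6.92 at 2 divisions (3.16-fold, adjusted p = 0.00385). Of 11 genes of the EGF family 1 rose, the receptor Erbb3, and 2 fell, the ligands Tgfa and Ereg, with a median change of -0.12. Over all genes 10.1% were higher and 8.85% lower. The other Tgfa probe sets were dim, at 4.41 or less, and changed by 0.03 and 0.02, which was not called. Without the block 1 of the family was called in each direction, without replicate 1 of the 3 or more divisions 1 was called higher and 0 lower, and 0 were called without any one of the other 3 arrays.

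Among 22 interferon response genes 8 fell (36.4%, against 8.85% of all genes) and 0 rose, with a median change of -0.54. Without the block 1 was called, without replicate 2 of the 3 or more divisions 3, without replicate 2 of the 2 divisions 0, and without replicate 1 of the 3 or more divisions 4. Ifit3, an antiviral protein, read 6.28 and 5.91 at 3 or more divisions, against 7.65 and 8.08 at 2 divisions (3.41-fold lower, adjusted p = 0.0103). Irf9, a subunit of the interferon-activated factor ISGF3, read 6.18 and 6.20, against 7.13 and 7.20 at 2 divisions (1.97-fold lower). Mx1 and Cxcl10 were dim and changed by 0.01 and 0.07. Of 26 Hox genes 1 rose and 3 fell (11.5%, against 8.85% of all genes), with a median change of -0.21. Without the block limma called 0 Hox genes, with 3 at an unadjusted p under 0.05, and with single arrays left out 0 were called higher and 0 to 4 lower, the lowest without replicate 2 of the 2 divisions. Hoxa10, a posterior Hox gene, read 7.42 and 6.99, against 8.41 and 7.95 at 2 divisions (1.96-fold lower).

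Among markers of other lineages, the endothelial, skeletal muscle and macrophage lists gave few calls, where 19.0% of all genes were called. Neural markers had 7.14% called each way, and cartilage and bone markers 7.69%. Those shares were near the 10.1% higher and 8.85% lower over all genes, and the lists are small. Endothelial and skeletal muscle markers had 0 limma calls among 14 genes each, and 1 gene of each list had an unadjusted p under 0.05. Their largest changes were 0.45 for Tek and 0.39 for Mylpf (adjusted p = 0.241 and 0.076). Of 15 macrophage markers 1 rose, Cd68, a lysosomal protein, with 8.26 and 7.94 at 3 or more divisions, against 7.55 and 6.39 at 2 divisions. Ptprc, the pan-leukocyte marker CD45, changed by 0.31 and stayed dim. Neural markers included 1 rise, the neuronal tubulin Tubb3, at 8.64 and 9.14, against 6.97 and 6.45 at 2 divisions (4.53-fold, adjusted p = 0.0255). They also included 1 fall, Map2 (-1.16). Without the block 0 macrophage and 0 neural markers were called. Adipocyte markers had 2 rises, Fasn and Pparg, and 2 falls, Fabp4 and Cebpb, among 12 genes. That was 16.7% each way, against 10.1% higher and 8.85% lower over all genes. Without the block 1 rose and 0 fell. Cartilage and bone markers had 1 rise, Alpl, and 1 fall, Col11a1, which read 9.17 and 8.73 at 3 or more divisions, against 10.45 and 11.09 at 2 divisions (3.53-fold lower, adjusted p = 0.00271). These small counts shifted with single arrays: without replicate 2 of the 2 divisions 0 macrophage and 0 neural markers were called, with 1 rise and 0 falls among adipocyte markers and 0 rises and 1 fall among those of cartilage and bone. The same 4 lists gave the same counts without replicate 2 of the 3 or more divisions.

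In 9 genes the step between 2 and 3 or more divisions differed from the step between 1 and 2 divisions (limma, adjusted p = 0.0439 or 0.0449 in each). Without the block 0 genes passed, with 1371 at an unadjusted p under 0.05, against 2698 with it. Leaving out replicate 2 of either cohort also left 0, 4 passed without replicate 1 of the 3 or more divisions, and 98 passed without replicate 1 of the 2 divisions. The 6 positive differences belonged to Nup210, Spink12, Aadac, Slc7a5, Gpt2 and Btn1a1, and the 3 negative ones to Pdk4, Mndal and Cpt1a.

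Aadac, an esterase, read 6.43 and 6.66 at 3 or more divisions, against 4.18 and 4.13 at 2 divisions, and averaged 4.06 at 1. Slc7a5, a transporter of large neutral amino acids, read 9.74 and 10.37, against 7.87 and 8.46 at 2 divisions, and averaged 8.48 at 1. Gpt2, a mitochondrial alanine transaminase, read 9.36 and 9.48, against 7.25 and 7.75 at 2 divisions, and averaged 7.65 at 1. In each of these genes a level or slightly lower step to 2 divisions was followed by a rise.

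Pdk4, a kinase that inhibits pyruvate dehydrogenase, read 5.44 and 5.47 at 3 or more divisions, against 8.09 and 9.10 at 2 divisions (8.82-fold lower, adjusted p = 0.00139), and averaged 7.96 at 1. Cpt1a, the gate of fatty acid oxidation, read 10.01 and 9.98, against 11.23 and 11.22 at 2 divisions (2.35-fold lower, adjusted p = 0.0018), and averaged 10.84 at 1. Both were higher at 2 than at 1 division and lowest of all cohorts at 3 or more.

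**Figure D4:**
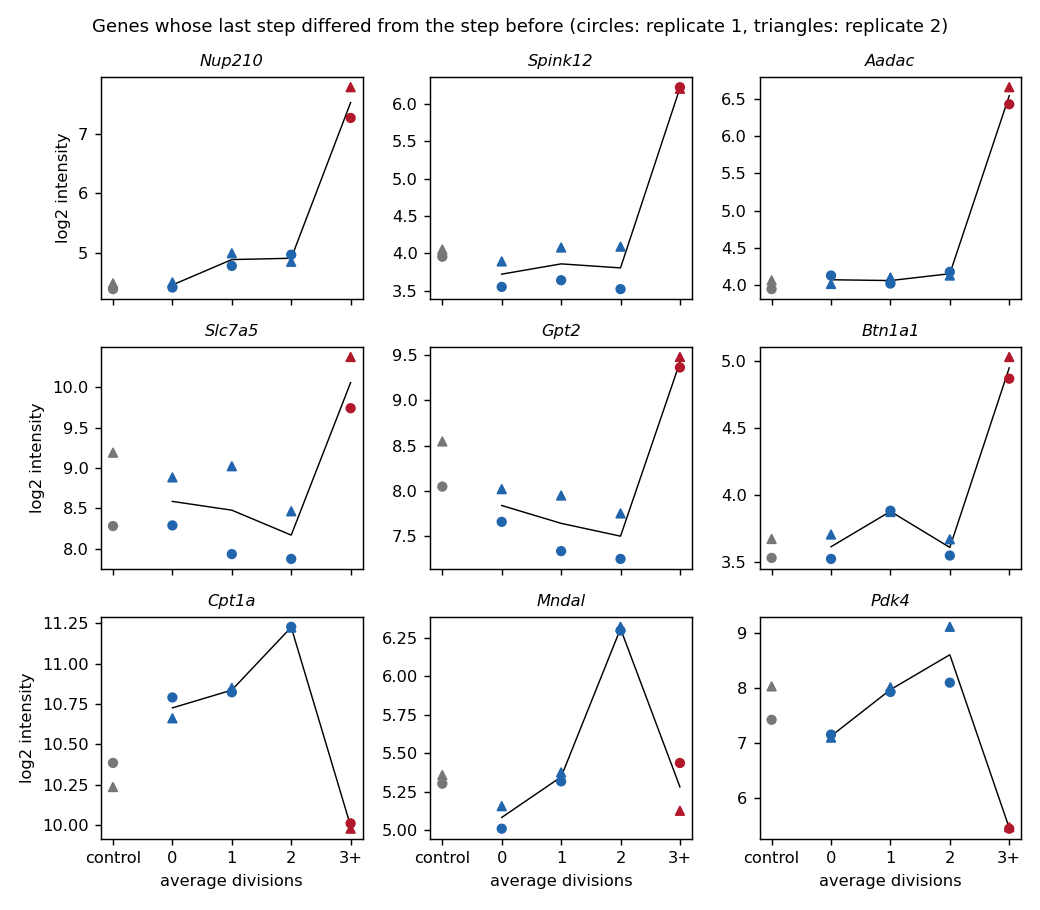
Log2 intensity (y axes, each with its own range) of the 9 genes whose last step differed from the step before, on each array by average divisions, with circles for replicate 1, triangles for replicate 2 and lines through the means of the induced cohorts. Pdk4 lies at 5.44 and 5.47 at 3 or more divisions, against 8.09 and 9.10 at 2 divisions, while Aadac lies at 6.43 and 6.66, against 4.18 and 4.13.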

How the data were processed

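Per the labels' protocols, total RNA was extracted with TRIzol, cleaned on RNeasy columns and labelled for Affymetrix arrays. The authors deposited 1 table of linear intensity values per probe set, which were not counts. RMA is named in the submitters' processing notes for the earlier 4 arrays. For the later 6 no tool is given in the sources used here, nor is a version of RMA or a detection call. The number of arrays, 2 per group, limits the precision. The members and gene lists were chosen with earlier results of these data known.

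From the deposited intensity, log2 was taken (floor 1) and the 10 arrays were quantile-normalized. Gene names came from GEO's table for the platform. In it, 932 probe sets name several genes and 9211 have no entry. Of the 34945 with 1 gene, 34741 matched the RefSeq table by gene ID, with 0 symbols updated. Each gene was read from its probe set of highest mean, a choice for 9010 of the 18193 genes. Of 603 list entries 570 were measured, and the others were not analysed here.

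limma 3.58.1 (R 4.3.3) fitted 5 groups and the replicate number to 10 arrays with 4 residual degrees of freedom. Tests were two-sided, adjusted by Benjamini-Hochberg over all genes, at 0.05. The block follows the pairing by replicate number. Same-numbered arrays deviated together: r was 0.477 to 0.872 over the 10 pairings of groups (9096 brighter genes). The pairing comes from this check and the shared numbers, as no label states a shared batch. The same fit was tested on simulated data. Arrays with identical values numbered 0.

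Named genes were the 12 largest rises and 12 largest falls among called genes with cohorts that did not overlap and a brighter mean that lay above the median of all genes (6.50). Up to 4 called members per list by size of change, the reprogramming factors with a few markers, and the genes of the step test were added. Krt5, Krt18, Trp63, the uncalled members given with their values and other list members beyond these were named after their values were seen. Promoters come from RefSeq (GRCm38.p6), and a gene counts as holding a motif if any of its listed promoters does. Alternatives tried were the fit without the block, other arrays, scalings, floors, probe set rules and spread models, and each array left out.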

Additional observations from a re-analysis of the deposited data

Results flagged for a closer look

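For 9 genes the step between 2 and 3 or more divisions differed from the step between 1 and 2 divisions by limma's test of that difference with the replicate block, which is why they are given here. The differences (last step minus the step before, log2) were 2.61 for Nup210, 2.46 for Spink12, 2.30 for Aadac, 2.20 for Slc7a5, 2.06 for Gpt2 and 1.61 for Btn1a1. They were -1.62 for Cpt1a, -1.995 for Mndal and -3.77 for Pdk4. Adjusted p was 0.0439 in 8 of them and 0.0449 for Slc7a5.

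Spink12, a gene of the Kazal protease inhibitor family, read 6.23 and 6.21 at 3 or more divisions, against 3.52 and 4.09 at 2 divisions. Its other 8 arrays, control included, did not exceed 4.09. Btn1a1, a butyrophilin, read 4.87 and 5.03, against 3.54 and 3.67 at 2 divisions. Mndal, an interferon-inducible gene, read 5.44 and 5.12, against 6.30 and 6.32 at 2 divisions, and the means at 0 and 1 division were 5.08 and 5.34. Spink12 was thus low before the last step, and Mndal was highest at 2 divisions among the induced cohorts. Of the 2 steps compared, 1 crosses the array sets and the other does not, and the part of the set in these differences cannot be told apart from that of the cohort. Groups of 2 arrays are too small for an outlier test of single arrays.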

How the results depend on the processing

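The count of 3449 genes was 1087 with no replicate block, 5371 when all probe sets with 1 gene were tested and 828 for calls of at least 2-fold. It ran from 740 to 2891 with 1 compared array left out, the lowest without replicate 2 of the 2 divisions, and the lone array was then assumed to vary like the other groups. Other settings gave 2331 (floor of 16) to 3746 (intensity trend and robust spread). With arrays centred on their median 60.1% of calls were higher, against 53.3%. The 9 genes of the step test became 0 with no replicate block, 1 with the 8 induced arrays, 1 with a floor of 16, 1 with the mean of a gene's probe sets, 15 without x_at and s_at probe sets, 61 with the intensity trend, and 0 to 98 with 1 array left out. Of 112 called named genes, 56 were not called without the block, 70 were lost in at least 1 fit that left out an array, and 42 were called in all 4 such fits. Uncalled genes near 0 changed sign: Epcam to -0.025 with the deposited values and Sox2 to -0.049 with a floor of 16. With 1 array left out Epcam ran from -0.12 to 0.17, Sox2 from -0.19 to 0.19, Nanog from -0.24 to 0.13, Fut4 from -0.23 to 0.00353 and Thy1 from -0.61 to 0.11. The cause was not tested, beyond the fewer arrays or genes in those fits. Dim genes are compressed on this scale, and without detection calls genes below background are not known.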

Other observations

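Genes of amino acid supply rose together in cells of 3 or more divisions. The list, which gathers genes of serine, cysteine and amino acid uptake that the transcription factor ATF4 is known to control, was chosen after the values were seen. Of 22 genes measured 17 rose (77.3%, against 10.1% of all genes) and 0 fell, with a median change of 1.43, against 0.03 over all genes tested. Without the block 6 of the 22 were called, all higher, and with 1 compared array left out 12 to 15 were called higher and 0 or 1 lower. Because of that choice the count describes the genes and tests nothing. Bcat1, a branched-chain aminotransferase, read 9.81 and 10.41 at 3 or more divisions, against 7.67 and 8.02 at 2 divisions (4.79-fold, limma adjusted p = 0.00385). Psph, which makes serine, read 9.22 and 9.63, against 7.75 and 7.51 at 2 divisions (3.46-fold, adjusted p = 0.00255). Mthfd2, a mitochondrial enzyme of one-carbon metabolism, read 9.50 and 9.87, against 7.43 and 7.99 at 2 divisions. The control of Mthfd2 read 9.46 and 9.99, close to the arrays of 3 or more divisions, while Psph in the control read 7.48 and 7.98. Asns, asparagine synthetase, read 11.71 and 11.95 at 3 or more divisions, against 10.25 and 10.68 at 2 divisions, with 10.68 and 11.18 in the control. Without the block limma called Psph (adjusted p = 0.0280). Bcat1, Mthfd2 and Asns were then not called by limma (adjusted p = 0.0722, 0.0596 and 0.100). Atf4 and its target Ddit3 changed by 0.27 and -0.22 and were not called.

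Genes of fatty acid use and the PPAR response, a list also chosen after the values were seen, leaned the other way. Of 17 measured genes 7 fell (41.2%, against 8.85% of all genes) and 1 rose, with a median change of -0.37. Without the block 3 fell and 0 rose. Without replicate 2 of the 2 divisions the counts were the same as without the block, and without replicate 2 of the 3 or more divisions 4 fell and 1 rose. Angptl4, an inhibitor of lipoprotein lipase, read 8.93 and 8.46 at 3 or more divisions, against 10.88 and 11.03 at 2 divisions (4.79-fold lower, adjusted p = 0.0191). Acadl, a dehydrogenase of fatty acid oxidation, read 10.80 and 10.45, against 11.63 and 11.52 at 2 divisions (1.93-fold lower, adjusted p = 0.00282). Ppard, a nuclear receptor of the PPAR family, was the member that rose, with 7.44 and 7.45, against 6.69 and 7.08 at 2 divisions (1.47-fold, adjusted p = 0.0454). Without the block Angptl4 and Ppard were not called (adjusted p = 0.132 and 0.25), and Acadl was (adjusted p = 0.0406).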
